A study of Mus musculus with 12 samples.

Results

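The genes for 8 regulators of G protein signalling (RGS), *Rgs1*, *Rgs2*, *Rgs3*, *Rgs10*, *Rgs14*, *Rgs16*, *Rgs18* and *Rgs19*, were followed in mouse bone marrow neutrophils and in macrophages exposed to the neuropeptide calcitonin gene-related peptide (CGRP). They were chosen by gene name, and each of the 8 was found as a row of both count tables, among 52636 genes. The tables hold 21 genes named Rgs and a number, and the 8 chosen genes took between 98.3% and 99.8% of the counts of all 21 in every library.

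RGS proteins share a domain that speeds up GTP hydrolysis by the alpha subunits of heterotrimeric G proteins, chiefly those of the Gi and Gq families, and so shorten the signal from an activated receptor. In leukocytes, chemokine receptors signal mostly through Gi, and RGS proteins limit how long that signal lasts. The CGRP receptor, by contrast, couples mainly to Gs and raises cAMP. It pairs the receptor CALCRL with the accessory subunit RAMP1. Members of the R4 subfamily (here *Rgs1*, *Rgs2*, *Rgs3*, *Rgs16* and *Rgs18*) are small proteins with little beyond the RGS domain, although RGS3 also has long forms. *Rgs10* and *Rgs14* belong to the R12 subfamily, and *Rgs19*, which encodes the protein also called GAIP, belongs to the RZ subfamily.

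There were 4 groups of 3 libraries. Neutrophils were enriched from the bone marrow of C57BL/6J mice aged 8 to 12 weeks and were used fresh, in RPMI medium. Macrophages (monocyte/macrophage in the sample labels) were bone marrow monocytes of C57BL/6J mice, also aged 8 to 12 weeks. They were kept for 3 days in DMEM/F12 medium with 10 ng/ml M-CSF, the growth factor under which monocytes become macrophages. Each cell type then received 1 nM CGRP or the saline vehicle (PBS) for 4 h. The labels give no transgene or deletion for any group. The labels do not say whether libraries of a group came from separate mice, so the p-values measure the spread between these libraries, which may be technical.

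The total count per library ranged from 2719556 to 3631989 (median 3299174) in neutrophils with PBS and from 2196558 to 3270388 (median 3269709) in neutrophils with CGRP. In macrophages it ranged from 2536415 to 3477069 (median 3379068) with PBS and from 2002559 to 3259073 (median 2692858) with CGRP. A floor of 3 counts corresponded to between 0.826 and 1.498 CPM (counts scaled to a common library total), for counting error only. Levels within a cell type are given as CPM scaled by TMM, a method that corrects library totals for differences in composition.

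The cell type labels were checked against marker genes. Summed over 14 neutrophil markers, led by *S100a8*, the level was between 164046 and 238759 CPM in neutrophil libraries and between 315 and 462 CPM in macrophage libraries. Summed over 12 macrophage markers, it was between 44671 and 63463 CPM in macrophage libraries and between 2141 and 2733 CPM in neutrophil libraries. The neutrophil libraries also held RNA of other marrow cells. Their sums were between 694 and 793 CPM for 10 B cell markers, between 5733 and 7237 CPM for 7 erythroid markers, between 1482 and 1775 CPM for 8 mast cell, basophil and eosinophil markers, and between 847 and 994 CPM for 5 progenitor markers. The part of these cells in the RGS levels of neutrophils was not tested, and in bulk RNA fewer cells of a type cannot be told apart from less RNA per cell.

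*Rgs2* is the member whose response to CGRP differed between the cell types, and its promoter is shown for that reason. RefSeq promoter windows of the GRCm38.p6 assembly (250 bases before to 50 bases after a start site) were matched by symbol for 5 of the 8 genes, in 8 windows. *Rgs1*, *Rgs14* and *Rgs18* had no window and were not searched. The windows were searched on both strands for TGACGTCA, the palindromic site bound by the cAMP-responsive factor CREB, and for its core TGACG, which reads CGTCA on the other strand and lies within the full site. No window of the 5 genes held the full site. Among the 8 windows of these 5 genes, only that of *Rgs2* held the core. It did so at 2 places that begin 185 and 67 bases before the start. Of all 32851 windows of 300 bases, 1.79% held the full site and 20.8% the core, so the letters are common and a match is a description only. The 250 bases before the *Rgs2* start, chr1:144004150-144004399 on the minus strand, follow 5′ to 3′, with the cores in capitals.
Rgs2: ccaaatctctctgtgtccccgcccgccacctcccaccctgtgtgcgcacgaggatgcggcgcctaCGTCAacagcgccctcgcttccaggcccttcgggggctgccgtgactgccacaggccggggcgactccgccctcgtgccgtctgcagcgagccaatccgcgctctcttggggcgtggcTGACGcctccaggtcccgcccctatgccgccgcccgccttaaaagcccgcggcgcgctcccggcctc

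In GRCm38, 4 of the genes lie on chromosome 1. These are *Rgs2* (ENSMUSG00000026360, 143999338 to 144004161, minus strand), *Rgs1* (ENSMUSG00000026358, 144242296 to 144249242, minus strand), *Rgs18* (ENSMUSG00000026357, 144752683 to 144775435, minus strand) and *Rgs16* (ENSMUSG00000026475, 153740349 to 153745468, plus strand). *Rgs3* (ENSMUSG00000059810) lies on chromosome 4 from 62559847 to 62704001, *Rgs10* (ENSMUSG00000030844) on chromosome 7 from 128373621 to 128418758, *Rgs14* (ENSMUSG00000052087) on chromosome 13 from 55369732 to 55384687 and *Rgs19* (ENSMUSG00000002458) on chromosome 2 from 181688419 to 181693977. The counts belong to whole genes, and priming from the poly-A tail places the reads mostly near 3′ ends. Another annotated gene overlaps *Rgs3*, *Rgs10* and *Rgs16*. The antisense gene *Gm28513* shares 236 exonic bases with *Rgs16* and had 0 counts. *Gm11209*, opposite *Rgs3*, had at most 1 count and *Gm15503*, on the strand of *Rgs10*, at most 10 counts in any library, and neither shares exonic bases with the RGS gene.

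Without CGRP, the most abundant RGS transcripts of neutrophils were *Rgs19* and *Rgs2*, and that of macrophages was *Rgs10*. Levels were compared between genes per kilobase of exonic length, on a TMM scale shared by all 12 libraries, although libraries primed at the 3′ end depend little on length. The annotated exons of *Rgs1* merge into 1 exon of 6947 bases that spans the whole gene. Its level per kilobase is thus divided by the full gene length, and its place in the order depends on that. In PBS neutrophils, *Rgs19* stood at 157 ± 11.3 CPM per kilobase (SD, n = 3) and *Rgs2* at 144 ± 9.16, and the libraries of these neighbours overlapped. They were followed by *Rgs18* at 55.8 ± 3.02, *Rgs10* at 45.5 ± 5.53, *Rgs14* at 9.60 ± 1.84, *Rgs1* at 0.723 ± 0.0495 and *Rgs3* at 0.493 ± 0.0827 CPM per kilobase, and no other neighbours overlapped. In PBS macrophages the order was *Rgs10* at 230 ± 35.1, *Rgs2* at 72.2 ± 11.1, *Rgs19* at 50.2 ± 7.72, *Rgs18* at 14.7 ± 2.06, *Rgs1* at 6.52 ± 1.91 and *Rgs14* at 1.14 ± 0.322 CPM per kilobase, with no overlap between neighbours. In CPM without division by length, *Rgs2* came before *Rgs19* and *Rgs3* before *Rgs1* in neutrophils, and *Rgs1* before *Rgs18* in macrophages, and the libraries overlapped for *Rgs3* and *Rgs1* and for *Rgs1* and *Rgs18*.

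**Figure D1:**
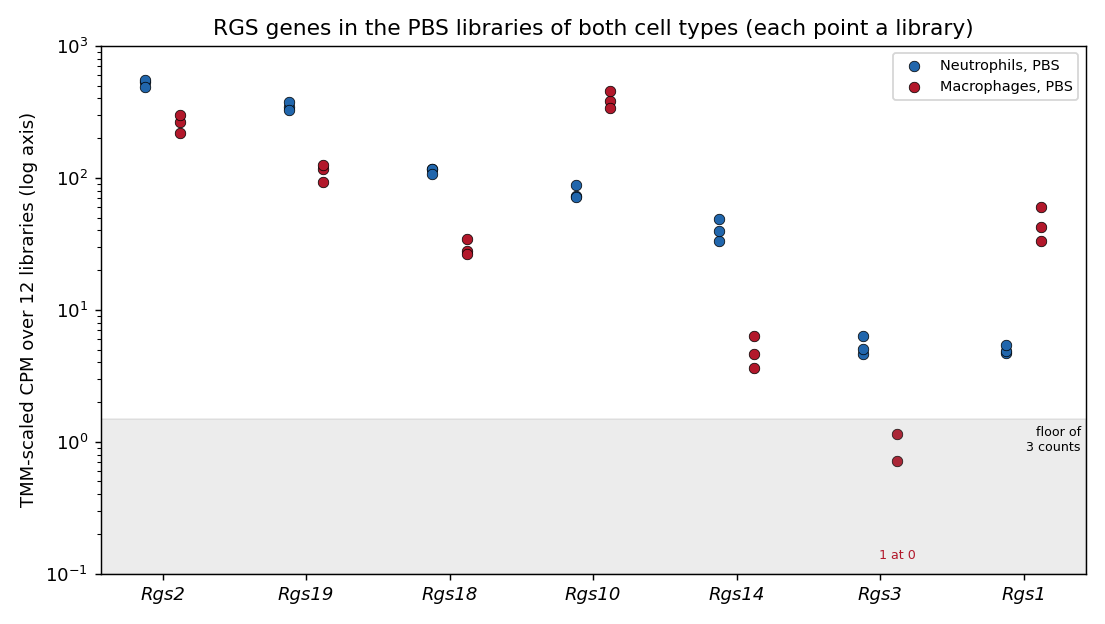
TMM-scaled CPM (12-library scale, log axis) of 7 RGS genes in the PBS libraries, with 1 point per library and cell type. *Rgs1* and *Rgs10* are higher in macrophages, and *Rgs2*, *Rgs14*, *Rgs18* and *Rgs19* are lower, with no overlap between the cell types. *Rgs3* entered the test only through the neutrophils, and its libraries at 0 counts are not drawn on the log axis.

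The PBS libraries of the cell types were then compared gene by gene. The 6 genes that passed the filter on low counts in both cell types all differed (adjusted p under 0.05, limma-voom), 2 higher and 4 lower in macrophages, without overlap between the cell types. *Rgs3* entered the test only through the neutrophils, where it was higher, so it is not counted with them. The shares over all genes that follow do include genes that passed the filter in a single cell type. The background is high, since 67.9% of all 10694 genes tested were called (32.5% higher and 35.4% lower in macrophages) and 70.5% did not overlap (33.9% higher and 36.6% lower). With library totals in place of TMM, 3720 genes were called higher and 3441 lower, against 3472 and 3791. Cell type cannot be told apart here from isolation, medium, the days in culture and M-CSF.

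Higher in macrophages were *Rgs10*, a small protein selective for Gi and known for its abundance in microglia, and *Rgs1*, which limits chemokine responses of lymphocytes. On the 12-library scale, *Rgs10* was at 393 ± 60.1 CPM in macrophages and 77.8 ± 9.46 CPM in neutrophils (5.02-fold, log2 2.33, SE 0.13, adjusted p = 2.27e-13). *Rgs1* was at 45.3 ± 13.3 CPM against 5.02 ± 0.344 CPM (log2 3.11, SE 0.43, adjusted p = 1.02e-06).

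Lower in macrophages were *Rgs14*, a Gi-selective protein that also carries a GoLoco motif, which holds Gi subunits in their GDP-bound state, then *Rgs18*, *Rgs19* and *Rgs2*. *Rgs14* was at 4.83 ± 1.36 CPM in macrophages and 40.7 ± 7.80 CPM in neutrophils (8.15-fold lower, adjusted p = 1.49e-09). *Rgs18*, known from platelets and megakaryocytes, was at 29.8 ± 4.18 against 113 ± 6.14 CPM (3.84-fold lower, adjusted p = 1.37e-10). *Rgs19*, which acts on Gi subunits, was at 112 ± 17.2 against 349 ± 25.2 CPM (3.13-fold lower, adjusted p = 5.57e-11). *Rgs2*, which favours the Gq subunit, was at 262 ± 40.4 against 523 ± 33.2 CPM (2.01-fold lower, adjusted p = 1.35e-07). *Rgs3*, which acts on Gi and Gq, had 20, 15 and 14 counts in neutrophils and 4, 0 and 2 in macrophages, and is given by these counts alone.

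Whether CGRP changed the RGS genes of macrophages was asked next. *Rgs2* rose and *Rgs18* fell, while *Rgs1*, *Rgs10*, *Rgs14* and *Rgs19* did not pass the test and *Rgs3* and *Rgs16* were too low to be tested. The 2 called genes among the 6 tested compare with 7.43% of all 9393 genes (3.46% higher and 3.97% lower, that is 325 and 373 genes, or 245 and 405 with library totals in place of TMM). The median log2 change was -0.23 over the 6 tested genes and 0.00 over all genes.

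*Rgs2* had 925, 1003 and 612 counts with PBS and 1663, 1286 and 817 with CGRP. This was 269, 304 and 224 CPM (mean 266 ± 40.3) with PBS and 534, 482 and 415 CPM (mean 477 ± 59.4) with CGRP, and every CGRP library lay above every PBS library. The rise was 1.80-fold (log2 0.85, SE 0.15, 95% interval 0.54 to 1.16, adjusted p = 0.00139).

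*Rgs18* had 98, 89 and 96 counts with PBS and 60, 27 and 25 with CGRP. In CPM it was 28.5, 26.97 and 35.1 (mean 30.2 ± 4.31) with PBS and 19.3, 10.1 and 12.7 (mean 14.03 ± 4.71) with CGRP, and every CGRP library lay below every PBS library. The fall was 2.14-fold (log2 -1.10, SE 0.25, 95% interval -1.63 to -0.57, adjusted p = 0.0116), and without CGRP replicate 2 it was -0.87 and missed the threshold (adjusted p = 0.105).

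Because *Rgs18* is known from platelets, platelet and megakaryocyte markers are given beside it. The list of 14 was led in abundance by *Thbs1*, which rose in macrophages from 51.3 ± 18.1 to 1601 ± 211 CPM (adjusted p = 1.43e-10) and was the list's only call among 3 tested. The list summed to 688, 1029 and 765 CPM with PBS and to 2363, 2586 and 2283 CPM with CGRP. Without *Thbs1* it summed to between 645 and 990 CPM with PBS and between 641 and 991 CPM with CGRP, nearly all of it *Pf4*. Without *Thbs1* and *Pf4* it was between 4.95 and 8.41 CPM with PBS and between 7.12 and 15.2 CPM with CGRP, a sum of genes near the floor. *Gp1ba*, *Gp6* and *Tubb1* were at 0 in every macrophage library. Monocyte markers did fall in sum, from between 540 and 580 CPM to between 401 and 513 CPM over 4 genes, of which 2 were called lower and 2 had a log2 change above 0. The monocyte list holds *Ccr2* and *Cx3cr1*, which the paper gives as examples of migration genes lower with CGRP. B cell markers went from between 123 and 148 CPM to between 105 and 121 CPM, with 0 of 2 tested called by limma-voom, edgeR or DESeq2 and 1 at an unadjusted p under 0.05. Sums that were higher with CGRP, without overlap, were those of the neutrophil markers (315 to 407 CPM against 434 to 462 CPM, 0 of 9 called by any of the 3 tools and 2 at an unadjusted p under 0.05), of T cell and NK cell markers (1.82 to 4.02 against 5.998 to 8.13 CPM, 1 of 1 tested called, though not by DESeq2) and of dendritic cell markers (4.37 to 6.21 against 7.70 to 10.1 CPM, 0 of 1 called by any of the 3 tools and 1 at an unadjusted p under 0.05). The macrophage markers summed to between 44671 and 49472 CPM with PBS and between 55467 and 63463 CPM with CGRP, with 1 of 12 called higher by limma-voom and DESeq2 and 0 by edgeR. A list of 12 genes of stress and isolation, led by *Junb*, summed to between 1054 and 1191 CPM with PBS and between 1156 and 1163 CPM with CGRP, with 3 called higher and 2 lower of 9 tested. The part of these shifts in the RGS changes was not tested.

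**Figure D2:**
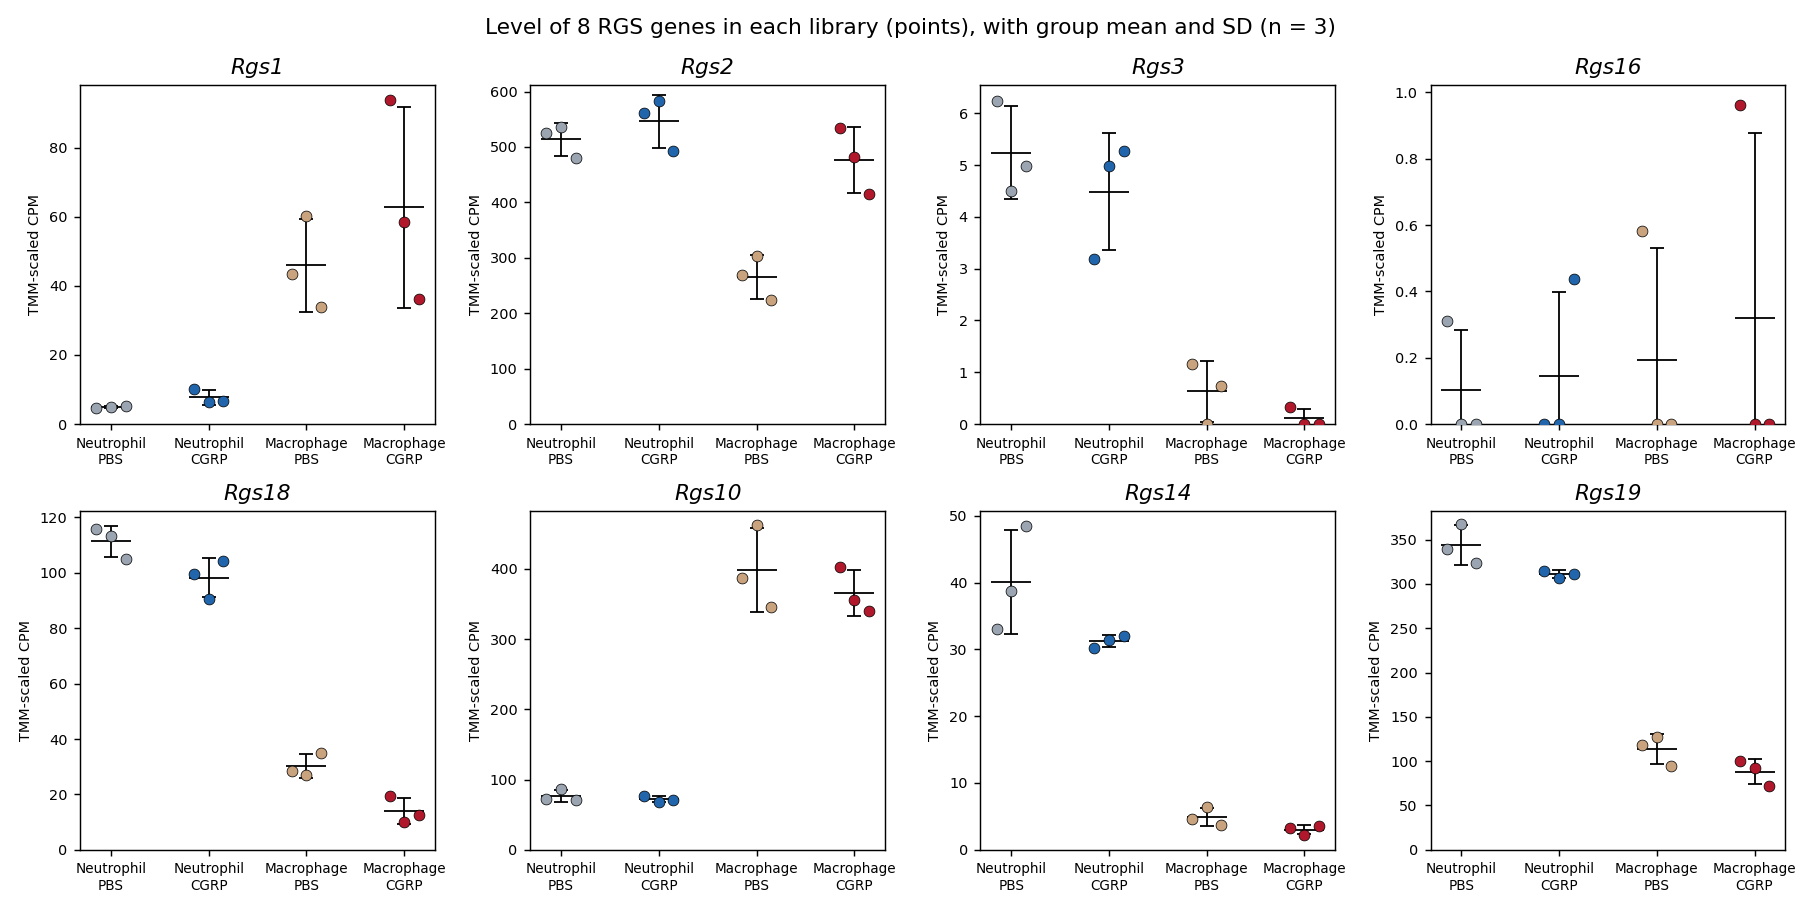
TMM-scaled CPM of the 8 RGS genes (1 panel each, axes from 0), with a point per library and the group mean and SD (n = 3) in neutrophils and macrophages with PBS or CGRP. In macrophages, *Rgs2* with CGRP lies between 415 and 534 CPM, above the PBS libraries, and *Rgs18* lies between 10.1 and 19.3 CPM, below them.

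*Rgs1* did not pass the test in macrophages. Its level was 43.4, 60.3 and 33.99 CPM with PBS and 93.7, 58.5 and 36.1 CPM with CGRP (log2 0.42, SE 0.27, adjusted p = 0.433), and a single CGRP library stood above the others. *Rgs10*, the most abundant member with PBS, was at 398 ± 59.8 CPM with PBS and 366 ± 32.6 CPM with CGRP (log2 -0.12, 95% interval -0.41 to 0.18, adjusted p = 0.711), with overlapping groups.

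*Rgs19* was at 113 ± 17.2 CPM with PBS and 88.3 ± 14.6 CPM with CGRP, with overlapping groups (log2 -0.35, SE 0.16, adjusted p = 0.239). *Rgs14* had 16, 21 and 10 counts with PBS and 10, 6 and 7 with CGRP, and its CPM groups did not overlap (log2 -0.68, SE 0.42, adjusted p = 0.400). Including it, 3 of the 6 tested genes had groups that did not overlap, beside 24.1% of all genes (11.9% higher and 12.3% lower). *Rgs3* had 4, 0 and 2 counts with PBS and 1, 0 and 0 with CGRP, and *Rgs16*, a Gi and Gq regulator, had 2, 0 and 0 against 3, 0 and 0. These last counts are at or near the floor, and no difference was detectable at this depth.

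In neutrophils, no RGS gene passed the test after CGRP. The count was 0 of 7 tested genes by limma-voom, by edgeR and by DESeq2, with 1 gene (*Rgs14*) at an unadjusted p under 0.05, beside 2.53% of all 9819 genes called (1.51% higher and 1.02% lower). With library totals in place of TMM, the calls over all genes were 150 higher and 64 lower, against 148 and 100. The median log2 change was -0.14 over the 7 genes and 0.00 over all genes. Groups did not overlap for 4 of the 7, *Rgs1* higher and *Rgs14*, *Rgs18* and *Rgs19* lower, beside 17.8% of all genes (8.96% higher and 8.83% lower). The stress and isolation genes summed to between 720 and 763 CPM with PBS and between 866 and 883 CPM with CGRP, with 2 of 10 tested called higher, and their part in these values was not tested.

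*Rgs2* in neutrophils had 1688, 1790 and 1348 counts with PBS and 1764, 1988 and 1123 with CGRP. This was 526, 537 and 480 CPM against 562, 584 and 493 CPM, and the groups overlapped. The log2 change was 0.09 (SE 0.08, 95% interval -0.09 to 0.26, adjusted p = 0.748), an interval that ends below the lower bound of the macrophage interval, 0.54.

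*Rgs18* was at 116, 113 and 105 CPM with PBS and 99.7, 90.7 and 104 CPM with CGRP (log2 -0.19, SE 0.10, 95% interval -0.40 to 0.02, adjusted p = 0.446). Its CGRP libraries all lay below its PBS libraries, with 104 and 105 CPM as the nearest values. Platelet and megakaryocyte markers other than *Thbs1* and *Pf4* summed to between 52.4 and 62.3 CPM with PBS and between 30.5 and 45.5 CPM with CGRP, with 1 of the list's 6 tested genes called lower and 1, *Thbs1*, higher. Monocyte markers summed to between 3031 and 3693 CPM with PBS and between 2467 and 3190 CPM with CGRP, with 1 of 4 called lower, and B cell markers to between 754 and 793 and between 694 and 725 CPM, with 0 of 10 called by limma-voom, edgeR or DESeq2 and 1 at an unadjusted p under 0.05. The platelet list holds *Itgb3* and the monocyte list *Ccr2* and *Cx3cr1*, which the paper gives as examples of migration genes lower with CGRP. The part of the marker sums in the RGS values of neutrophils was not tested. *Rgs19* was at 344 ± 22.6 CPM with PBS and 311 ± 4.15 CPM with CGRP (log2 -0.14, SE 0.08, adjusted p = 0.501), and its groups did not overlap either.

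*Rgs14* was at 33.0, 38.7 and 48.4 CPM with PBS and at 30.3, 31.4 and 32.0 CPM with CGRP (log2 -0.33, SE 0.16, unadjusted p = 0.0461, adjusted p = 0.374). The spread lay in the PBS libraries, while the CGRP libraries lay close together. *Rgs10* was at 76.5 ± 8.79 against 72.1 ± 4.39 CPM (log2 -0.08, adjusted p = 0.837), and its groups overlapped. *Rgs1* rested on few reads, 15, 16 and 15 counts with PBS and 32, 22 and 15 with CGRP (log2 0.62, SE 0.31, adjusted p = 0.419). *Rgs3* had 20, 15 and 14 counts against 10, 17 and 12 (log2 -0.25, SE 0.34, adjusted p = 0.836), and *Rgs16* had 1 count among the 3 PBS libraries and 1 among the 3 CGRP libraries.

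**Figure D3:**
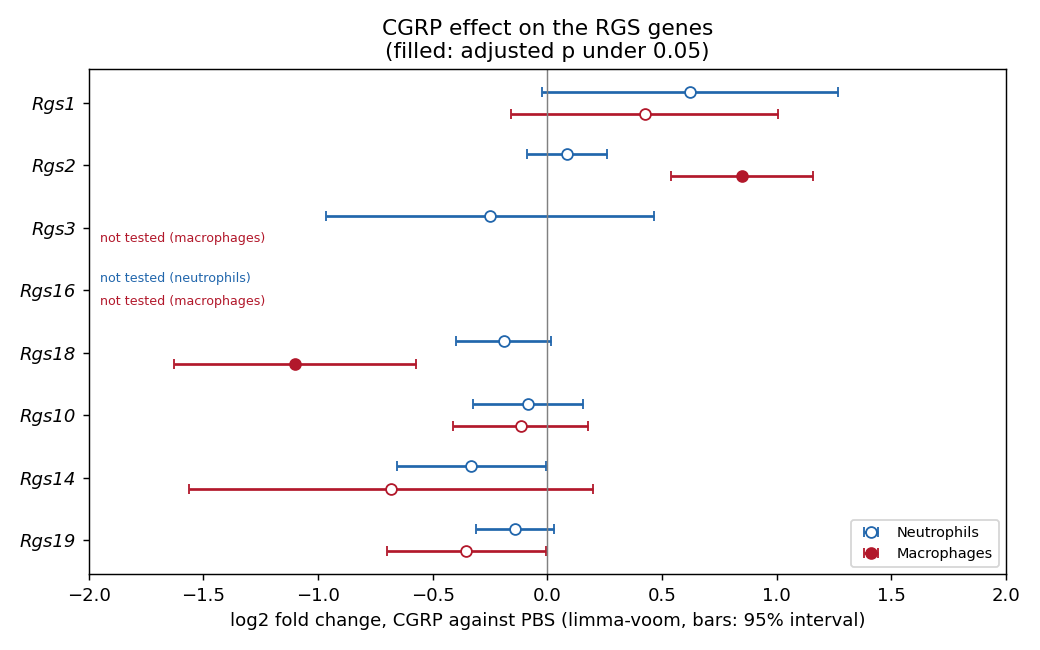
Log2 fold change of CGRP against PBS (limma-voom, x axis) for each RGS gene in both cell types, with bars for 95% intervals and filled points for an adjusted p under 0.05. The filled points are *Rgs2* (0.85) and *Rgs18* (-1.10), both in macrophages, and genes without a point were not tested.

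Whether CGRP acted differently in the 2 cell types was tested directly, as an interaction over the 12 libraries. *Rgs2* passed, the only 1 to do so of the 6 genes that passed the filter on low counts in both cell types, beside 2.36% of all 10694 genes (1.21% higher and 1.15% lower in macrophages, that is 129 and 123 genes, or 88 and 154 with library totals in place of TMM). That share includes genes that passed the filter in a single cell type. The log2 change of *Rgs2* in macrophages exceeded that in neutrophils by 0.77 (SE 0.17, 95% interval 0.43 to 1.12, adjusted p = 0.0107). Without neutrophil CGRP replicate 3 the difference was 0.68 and missed the threshold (adjusted p = 0.0548). On the 12-library scale, *Rgs2* stood at 469 ± 55.3 CPM in macrophages with CGRP, beside 550 ± 49.9 CPM in neutrophils with CGRP.

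The difference for *Rgs18* was -0.89 (SE 0.26, 95% interval -1.42 to -0.37) and missed the threshold (adjusted p = 0.0668). It passed in DESeq2 (adjusted p = 0.0339), with a stricter minimum of 10 counts per library (0.0474), with library quality weights (0.0124) and without macrophage CGRP replicate 1 (0.0174). A fall of *Rgs18* particular to macrophages was therefore not shown by the test. For the other 4 of these genes the adjusted p lay between 0.724, for *Rgs19*, and 0.980, for *Rgs10*.

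Ratios of counts within a library need no scaling, and those of the called genes to *Rgs10* are given as a description only. In macrophages the ratio of *Rgs2* to *Rgs10* was 0.695, 0.656 and 0.648 with PBS and 1.33, 1.36 and 1.22 with CGRP, so *Rgs2* had fewer counts than *Rgs10* in each PBS library and more in each CGRP library. The ratio of *Rgs18* to *Rgs10* was 0.0737, 0.0582 and 0.102 with PBS and 0.0478, 0.0285 and 0.0374 with CGRP. Neither ratio overlapped between the macrophage groups, and both overlapped between the neutrophil groups. In neutrophils *Rgs2* to *Rgs10* was 7.31, 6.19 and 6.77 with PBS and 7.29, 8.496 and 6.98 with CGRP. The ratios were formed after the changes were known and restate the same counts. With 3 against 3 libraries the test of them could not pass 0.05, so no conclusion is drawn from it. Over 6 comparisons, of these ratios and that of *Rgs18* to *Rgs2* in each cell type, a two-sided exact permutation test gave p = 0.1 for all 3 ratios in macrophages (adjusted p = 0.2), the smallest that 3 against 3 libraries allow, and p = 0.3, 0.4 and 0.2 in neutrophils (adjusted p = 0.36, 0.4 and 0.3).

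**Figure D4:**
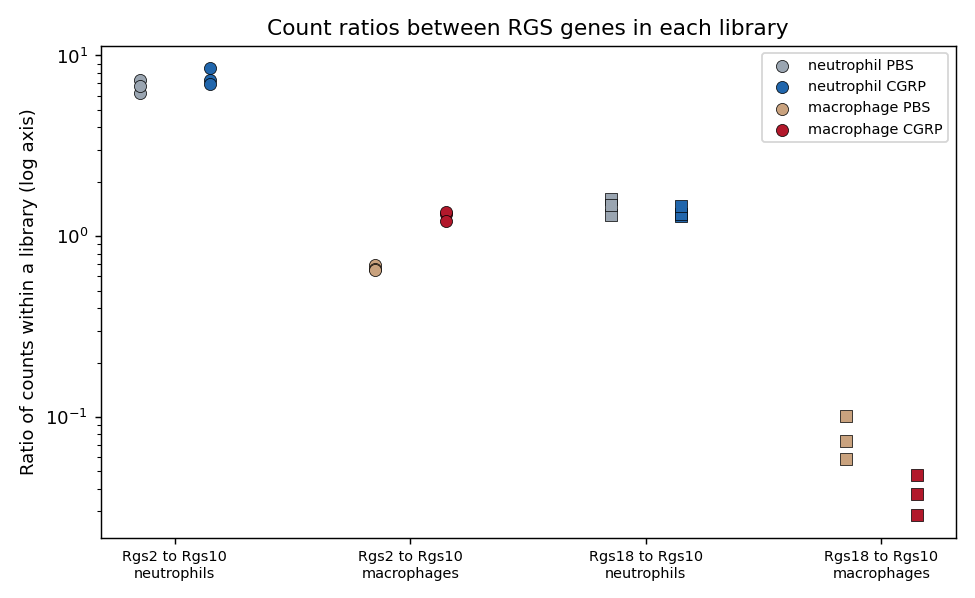
Ratios of *Rgs2* and of *Rgs18* to *Rgs10* counts within each library (log axis), with 1 point per library in each cell type and treatment. In macrophages the ratio of *Rgs2* to *Rgs10* moves from between 0.648 and 0.695 to between 1.22 and 1.36, and the neutrophil groups overlap.

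As a share of all Rgs counts in macrophages, *Rgs2* went from 30.7% ± 0.581 to 47.0% ± 1.02 (SD, n = 3), *Rgs10* from 46.1% ± 0.914 to 36.2% ± 1.97, *Rgs19* from 13.1% ± 0.577 to 8.68% ± 0.521 and *Rgs18* from 3.59% ± 1.03 to 1.37% ± 0.331. Shares move together, so a rise in *Rgs2* alone lowers the others. In neutrophils *Rgs2* took 46.3% ± 0.919 with PBS and 50.2% ± 2.56 with CGRP, and *Rgs19* 30.9% ± 0.415 and 28.7% ± 1.24. The 8 genes summed to 859 ± 126 CPM in macrophages with PBS and 1011 ± 138 CPM with CGRP, and to 1096 ± 57.1 and 1071 ± 41.1 CPM in neutrophils.

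**Figure D5:**
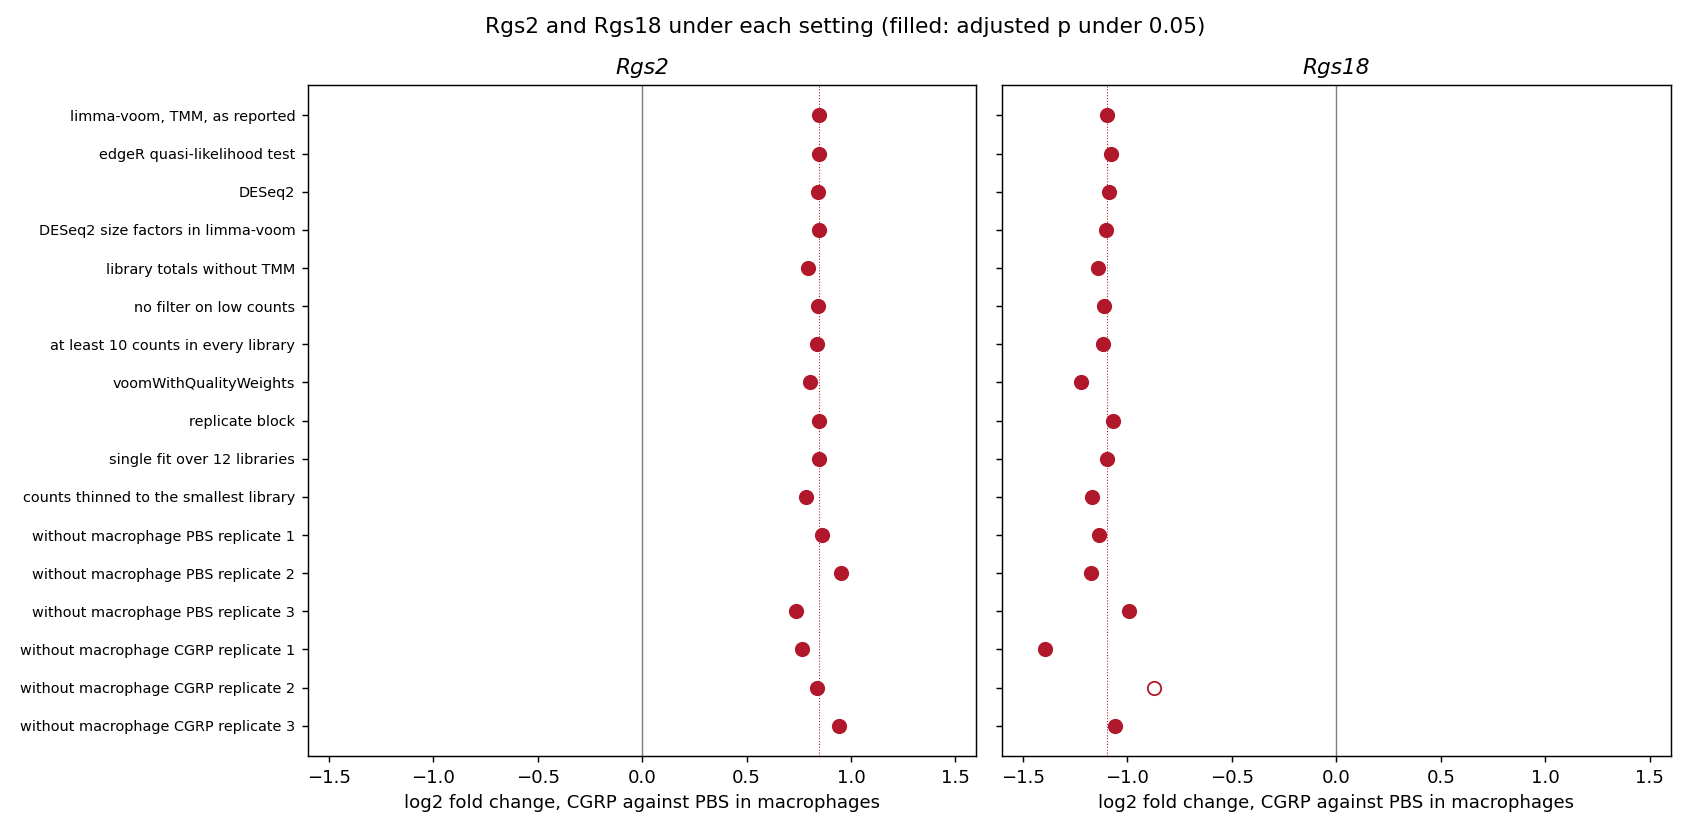
Log2 fold change of *Rgs2* and *Rgs18*, CGRP against PBS in macrophages, under each test, scaling, filter and omitted library (y axis), filled where the adjusted p was under 0.05. *Rgs2* is filled throughout, between 0.74 and 0.95, and *Rgs18* is filled except without CGRP replicate 2 (-0.87).

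The other genes named Rgs and a number were scarce. Of these 13 genes, 12 had at most 3 counts in every library, and *Rgs7*, *Rgs17* and *Rgs21* had 0 in every library. The exception was *Rgs12*, a large R12 member with a GoLoco motif, which had 38, 61 and 34 counts in PBS neutrophils and 20, 6 and 13 in PBS macrophages (log2 -1.91, adjusted p = 9.96e-05). It did not pass with CGRP (log2 -0.00, adjusted p = 0.998 in neutrophils, and log2 -0.34, adjusted p = 0.785 in macrophages). A further 9 genes with an RGS domain or for partners of RGS proteins had 4 tested in each cell type. In neutrophils 0 were called by limma-voom, edgeR or DESeq2, with 1 at an unadjusted p under 0.05, beside 2.53% of all genes called. In macrophages 1 was called, beside 7.43% of all genes. This was *Akap10*, which encodes an anchoring protein for the cAMP-dependent kinase that contains RGS domains. It had 142, 139 and 64 counts with PBS and 55, 34 and 20 with CGRP, a 2.55-fold fall (35.6 ± 10.6 to 13.5 ± 3.80 CPM, log2 -1.35, SE 0.28, adjusted p = 0.00668). In neutrophils *Akap10* was at 22.4 ± 5.77 and 23.0 ± 12.2 CPM (adjusted p = 0.989), and the difference between the cell types missed the threshold (-1.30, adjusted p = 0.206).

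The G protein subunits on which RGS proteins act are given beside the shares of all genes called with CGRP, 2.53% in neutrophils and 7.43% in macrophages. Of 16 alpha subunit genes 8 were tested in each cell type and 0 were called by limma-voom, edgeR or DESeq2, with 1 in each at an unadjusted p under 0.05. Of the beta and gamma subunits, *Gngt2* rose in neutrophils from 121 ± 2.16 to 168 ± 8.86 CPM (1.38-fold, adjusted p = 0.00423), the 1 call of 7 tested, which was lost in a single fit over the 12 libraries (log2 0.45, adjusted p = 0.190). It was at 726 ± 173 and 746 ± 99.0 CPM in macrophages (adjusted p = 0.890), where 0 of 9 tested were called by limma-voom, edgeR or DESeq2, with 0 at an unadjusted p under 0.05, and the difference between the cell types missed the threshold (adjusted p = 0.386). The regulators of the G protein cycle gave 0 calls of 9 tested in neutrophils and 0 of 8 in macrophages, each with 2 at an unadjusted p under 0.05. Receptor kinases and arrestins gave 0 of 6 in either cell type (1 and 0 at an unadjusted p under 0.05), and phospholipase C beta and RhoGEF genes 0 of 5 and 0 of 6 (1 and 0). edgeR and DESeq2 also called 0 in each of these.

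Between the PBS libraries of the cell types, several partners of the RGS genes differed, against the same background of 67.9%. *Gnai2*, which encodes the main Gi subunit of leukocytes, was at 366 ± 60.02 CPM in macrophages and 761 ± 25.3 CPM in neutrophils (log2 -1.07, adjusted p = 8.82e-08), and *Gnai3* at 92.9 ± 10.5 against 163 ± 9.66 CPM (log2 -0.81, adjusted p = 1.33e-06). *Gna15*, a Gq family member of blood cells, was at 13.5 ± 0.571 against 50.7 ± 1.601 CPM. *Gna12* was higher in macrophages, 49.1 ± 25.4 against 7.82 ± 0.221 CPM (log2 2.48, adjusted p = 3.38e-06). In all, 3 alpha subunits were higher and 3 lower of 8 tested, and 5 beta and gamma subunits were higher and 1 lower of the 7 that passed the filter in both cell types.

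Of the kinases and arrestins that switch off receptors, 5 of 6 tested were lower in macrophages and *Arrb1* was not called. Over all genes, 35.4% were called lower and 32.5% higher in macrophages. *Grk6* was at 10.7 ± 2.63 CPM in macrophages against 78.3 ± 14.6 CPM in neutrophils, *Grk2* at 56.0 ± 13.99 against 192 ± 16.2 CPM and *Arrb2* at 120 ± 6.77 against 313 ± 2.22 CPM. Of the effectors that passed the filter in both cell types, 3 of 5 were lower, *Plcb1*, *Plcb2* and *Arhgef1*. Of such regulators of the cycle, 2 of 8 were higher and 3 lower, and *Gpsm3*, a GoLoco protein of leukocytes, was at 101 ± 18.7 against 308 ± 5.47 CPM (adjusted p = 5.02e-10).

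The genes of the CGRP receptor are given beside the RGS genes because CGRP acts through them. *Ramp3*, whose product forms an adrenomedullin receptor with CALCRL, rose in both cell types, from 1.72 ± 0.193 to 10.6 ± 0.536 CPM in neutrophils (adjusted p = 3.27e-04) and from 1.33 ± 0.554 to 26.1 ± 1.06 CPM in macrophages (adjusted p = 9.19e-06). *Ramp1* fell in neutrophils from 259 ± 12.7 to 188 ± 9.98 CPM (log2 -0.46, adjusted p = 0.00336) and was at 118 ± 14.8 and 110 ± 15.1 CPM in macrophages (adjusted p = 0.808). *Calcrl* fell in macrophages from 18.2 ± 4.86 to 5.17 ± 0.997 CPM (log2 -1.75, adjusted p = 0.00335) and was at 29.8 ± 4.51 and 18.6 ± 4.23 CPM in neutrophils (adjusted p = 0.0864). None of the 3 differed in effect between the cell types past the threshold (adjusted p = 0.113, 0.319 and 0.188).

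A list of 20 genes known to rise with cAMP held calls in both cell types. In macrophages 8 of 13 tested rose and 0 fell, and in neutrophils 6 of 16 rose and 1, *Klf4*, fell (5 called in all by DESeq2). Over all genes, 3.46% were called higher and 3.97% lower in macrophages, and 1.51% and 1.02% in neutrophils. The phosphodiesterase gene *Pde4b* rose from 12.4 ± 0.502 to 137 ± 4.71 CPM in macrophages (log2 3.45, adjusted p = 7.99e-09) and from 52.0 ± 4.31 to 79.2 ± 6.87 CPM in neutrophils (log2 0.60, adjusted p = 0.00501), where the call was lost without PBS replicate 2 (log2 0.53, adjusted p = 0.0633). *Crem*, a cAMP-responsive transcription factor, rose from 13.9 ± 1.32 to 181 ± 13.6 CPM in macrophages (adjusted p = 5.40e-09) and had 32, 35 and 26 counts with PBS and 43, 67 and 47 with CGRP in neutrophils, with CPM groups that did not overlap (log2 0.81, adjusted p = 0.0692). *Nr4a2* rose from 2.44 ± 1.45 to 41.3 ± 2.94 CPM in macrophages and from 8.44 ± 0.267 to 23.7 ± 2.39 CPM in neutrophils, and *Fosl2* from 17.3 ± 3.78 to 60.3 ± 9.79 CPM in macrophages, with 61.6 ± 2.25 and 70.3 ± 10.6 CPM in neutrophils (adjusted p = 0.643). *Fos* rose in neutrophils from 52.2 ± 6.61 to 127 ± 17.3 CPM (log2 1.30, adjusted p = 1.69e-06) and in macrophages from 160 ± 13.2 to 272 ± 25.1 CPM (log2 0.77, adjusted p = 0.00149).

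The genes whose pattern over the 12 libraries was most like that of *Rgs2* and of *Rgs18* were sought among 7121 genes with a mean of at least 10 CPM, by Pearson's r of log2 CPM. The libraries share cell type and treatment, so a high r describes the grouping. For *Rgs2* these were *Tnfaip8* (r = 0.955), *Snx20* (0.949) and *Mefv* (0.949). For *Rgs18* they were *Myo1g* (0.993) and the cell division genes *Ccna2*, which encodes cyclin A2 (0.991), and *Nusap1*, which encodes a spindle protein (0.990). *Ccna2* fell in macrophages with CGRP by 1.37 on the log2 scale (adjusted p = 0.00391), whereas *Nusap1* missed the threshold (log2 -0.98, adjusted p = 0.0573).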

How the data were processed

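The deposited values were raw counts of reads per gene, 1 table for each cell type, without normalization. Per the paper's methods, the authors processed reads with the nfCore/RNAseq pipeline, collapsed molecular identifiers, aligned to GRCm38 with STAR and counted with featureCounts; the annotation release and strand setting are not given in the sources used here. Of 52636 identifiers, 52489 were found in GENCODE M21, which gave positions and lengths.

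Each cell type's 6 libraries were filtered with filterByExpr (edgeR 4.0.16), a step chosen here, then scaled by TMM and tested with limma-voom (limma 3.58.1, R 4.3.3), which the study names, two-sided, with Benjamini–Hochberg adjustment over all genes tested and a threshold of 0.05. The interaction and the comparison of PBS libraries used a fit over 12 libraries. TMM-scaled CPM refers to counts of the genes tested. As alternatives, DESeq2 1.42.0 and edgeR's quasi-likelihood test were run, with other scalings and filters, quality weights, a replicate block, thinning and leaving out each library. Steps were tested on simulated data.

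Members, gene lists and tests were chosen with earlier results of these data known. Named were all 8 members, at most 4 called genes per list and comparison with the smallest adjusted p, *Calcrl*, *Ramp1*, the 3 genes most like a called member, and overlapping genes. *Thbs1*, *Pf4* and markers at 0 were named after their values were seen. *Itgb3*, *Ccr2* and *Cx3cr1* were named because the paper gives them as examples. Exact 0 counts were kept as 0. Protein sequences were not used here.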

Additional observations from a re-analysis of the deposited data

Results flagged for a closer look

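The CGRP effect differed between the cell types, by the interaction test over 12 libraries, for *Rgs2* among the RGS genes. It also differed for 5 of the 13 genes of the cAMP list that passed the filter in both cell types. Over all genes, including those that passed in a single cell type, the share was 2.36%. The 4 genes of the cAMP list with the smallest adjusted p are named here. The effect in macrophages minus that in neutrophils was 0.77 on the log2 scale for *Rgs2* (adjusted p = 0.0107, limma-voom), where the 3 macrophage libraries with CGRP all lay above the 3 with PBS and the neutrophil groups overlapped. It was 2.86 for *Pde4b* (adjusted p = 1.98e-08), 2.88 for *Crem* (adjusted p = 1.29e-06), 1.66 for *Fosl2* (adjusted p = 1.95e-04) and 2.75 for *Nr4a2* (adjusted p = 3.74e-04). Without neutrophil CGRP replicate 3 the difference for *Rgs2* was 0.68 and missed the threshold (adjusted p = 0.0548). The causes of these differences were not tested, and Dixon's test for an outlying library was not applied to groups of 3.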

How the results depend on the processing

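The call of *Rgs2* in macrophages held under 10 of 10 alternatives (log2 0.79 to 0.85) and without any 1 library (0.74 to 0.95), and that of *Rgs18* under 10 of 10 (-1.22 to -1.07) and without 5 of 6 libraries. The calls between PBS libraries of the 6 RGS genes that passed the filter in both cell types held under 7 of 7 alternatives (6 of 6 for *Rgs14*, which a stricter filter removed) and without any 1 library. The genes called with CGRP in neutrophils, 248, became 137 in a single fit over 12 libraries. In macrophages 698 became 1050 in that fit and 1334 with voomWithQualityWeights, under which the interaction went from 252 to 535. Without 1 library the counts ranged from 138 to 234 in neutrophils (138 without PBS replicate 1 or 2, 153 without CGRP replicate 2), from 347 to 765 in macrophages (347, 348 and 439 without PBS replicate 1, CGRP replicate 2 and CGRP replicate 3), from 149 (macrophage PBS replicate 1) to 328 for the interaction, and from 6889 to 7559 between PBS libraries. Library totals in place of TMM shifted the calls towards higher in neutrophils and between PBS libraries and towards lower in macrophages and in the interaction. The order of RGS levels changed at 4 places in neutrophils and 2 in macrophages without division by length. Signs that turned were all far from the threshold. They were *Rgs10* in neutrophils (0.0075 without PBS replicate 2, range without 1 library -0.14 to 0.0075), *Ramp1* in macrophages (0.015 without PBS replicate 2, range -0.20 to 0.015), and in the interaction *Rgs1* (range -0.54 to 0.12) and *Rgs10* (range -0.12 to 0.095). The causes were not tested.

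The labels do not say whether equal replicate numbers pair the libraries, and the correlations below could not settle it. In neutrophils the correlation of same-numbered libraries ran from -0.013 to 0.13, in macrophages from -0.18 to 0.27, and 3 of 6 libraries correlated best with their own number in each. A replicate block gave 289 genes called in neutrophils, 1007 in macrophages, 303 in the interaction and 7434 between PBS libraries. Without the block these were 248, 698, 252 and 7263. At totals between 2002559 and 3631989 counts, *Rgs1*, *Rgs3* and *Rgs16* in neutrophils and *Rgs3*, *Rgs14* and *Rgs16* in macrophages rest on few counts.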
